A study of Mus musculus with 6 samples.

Results

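Histones are the proteins around which nuclear DNA is wound, and 40 mouse histone genes are described here, of 19939 genes tested. They were chosen by symbol, as the core, linker and variant histone genes that had a probe set to themselves, and a gene with several such probe sets was represented by the set with the highest mean over the 6 arrays. By class, 26 were replication-dependent genes (4 of linker histone H1, 4 of H2A, 8 of H2B, 3 of H3 and 7 of H4), 9 were variants and 5 were testis-type genes. Since levels chose the probe sets, levels are given as description only, while the difference between the groups was not used in the choice. RNA came from Melan-Ink4a cells, a line of C57BL/6J skin melanocytes that is null for Ink4a-ARF, a genotype that the treated and the untreated samples share. The 3 treated samples had grown for 21 days with 10 nM NRG1, a ligand of the ERBB3 receptor, and the 3 control samples without it. No time is given for the untreated cultures. Both groups were kept in medium with 10% fetal bovine serum, 200 nM TPA (a phorbol ester) and 200 pM cholera toxin, and were harvested at 90% confluence. Each sample was 1 array. Whether the 3 arrays of each group stand for separate cultures is not stated, so the p-values reflect the spread between these samples alone, and that spread may be technical.

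Core histones H2A, H2B, H3 and H4 form the octamer of the nucleosome, and H1 binds the linker DNA where it enters and leaves. Most of this protein comes from clustered replication-dependent genes, which are transcribed mainly while DNA is being copied and whose messages end in a stem-loop instead of a poly(A) tail. Most variant histones come from single genes that are also transcribed outside DNA replication, have polyadenylated messages, and replace the replication-dependent forms at particular places in chromatin. The melanocyte lineage makes pigment, and in culture its proliferation is driven by agents such as TPA and growth factors.

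The 10 melanocyte markers listed had levels of 8.68 to 13.88 (log2, 6-array means), against a median of 7.17 over all genes, and 9 of them fell with NRG1 by the test used below. None of 6 keratinocyte markers and none of 4 endothelial markers was called. Of 6 fibroblast markers Col1a1 rose by 0.858 and the others were not called, and of 6 immune markers Cd68 rose by 0.227. The part of these marker changes in the histone results was not tested. Arrays correlated at 0.996 to 0.997 within a group and at 0.981 to 0.986 between groups. The RNA was taken from bulk cells, so more cells in DNA replication and more histone RNA per cell cannot be told apart.

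Of the 40 histone genes, 26 rose with NRG1, 1 fell and 13 were not called. The words rose, fell and called are kept for an adjusted p below 0.05 in limma's moderated test of every gene, with the Benjamini-Hochberg correction. Over all 19939 genes the share called was 20.9% in either direction, 12.3% up and 8.56% down. The 2461 rises and 1707 falls made rises 59.0% of calls, a split that became 2257 and 2396 (48.5%) when the arrays were quantile-normalized, whereas the histone count stayed at 26 rises. The median change of the 40 genes was 0.41 on the log2 scale, NRG1 minus untreated, against -0.029 over all genes, for which the middle of the distribution ran from -0.116 to 0.080. The untreated and NRG1 arrays did not overlap for 28 of the 40 in the upward direction and for 2 downward, beside 18.6% and 18.1% of all genes. Called rises of at least 2-fold were found for 5 histone genes, a size reached by 1.51% of all genes.

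**Figure D1:**
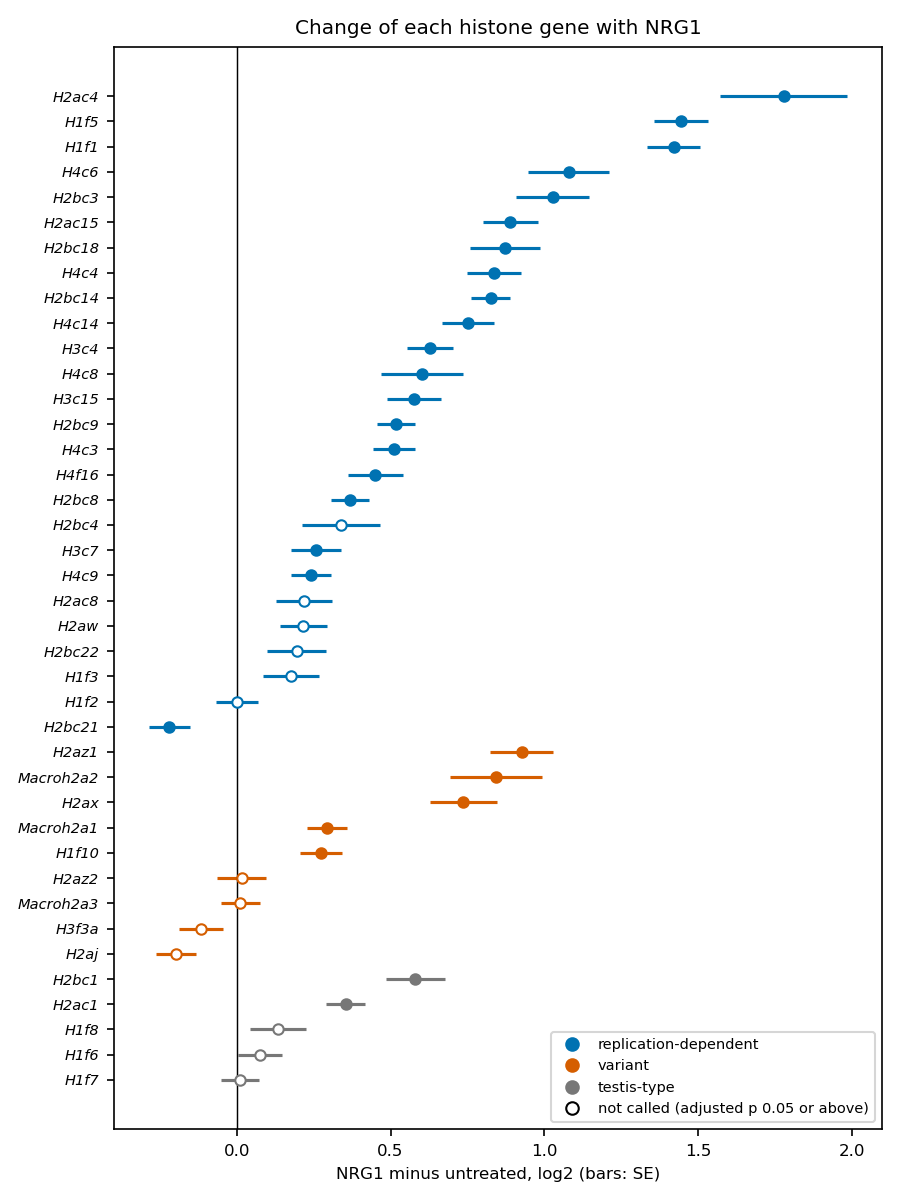
Change of each of the 40 histone genes (log2, NRG1 minus untreated, 3 arrays a group) with its standard error, arranged by class and, within a class, by change. Filled points passed an adjusted p of 0.05 and open points did not. The 26 rises reach 1.78 for H2ac4, and the 1 filled point below 0 is H2bc21.

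Of the 26 replication-dependent genes, 19 rose (73.1%), 1 fell and 6 were not called, with a median change of 0.547 and a range from -0.219 to 1.778. Per array, their median level was 8.68, 8.32 and 8.37 with NRG1 and 7.54, 7.71 and 7.49 untreated, so every NRG1 array lay above every untreated array. Of the 9 variant genes 5 rose (55.6%) and 4 were not called, with a median change of 0.274 and a range from -0.196 to 0.926. Their median level was 8.59, 8.51 and 8.49 with NRG1 and 8.44, 8.50 and 8.17 untreated, so the groups overlapped narrowly. Classes were assigned by symbol, which put H2bc21, the 1 fall, among the replication-dependent genes and the pseudogene Macroh2a3 among the variants. The difference between the classes was not tested, because the genes of a class are not replicates. The ranges of the classes overlap, and the variant H2az1 changed by more than most replication-dependent genes.

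Linker histone H1 compacts chromatin, and its replication-dependent subtypes split into 2 that rose and 2 that were not called. H1f5 read 11.72, 11.48 and 11.68 on the NRG1 arrays and 10.10, 10.34 and 10.09 on the untreated ones. All treated arrays were high and all untreated arrays low, a 2.72-fold rise (log2 1.44 ± 0.089 SE, adjusted p = 1.61e-06, limma). H1f1, a subtype of limited distribution among somatic cells, read 10.16, 10.01 and 9.91 with NRG1 and 8.60, 8.74 and 8.48 without, a 2.68-fold rise (1.42 ± 0.086, adjusted p = 1.44e-06). H1f2, a widely expressed somatic subtype, read 9.46, 9.31 and 9.35 with NRG1 and 9.45, 9.37 and 9.30 without. The groups overlapped, and the difference was 0.002 with a 95% interval from -0.15 to 0.15. H1f3 read 6.95, 6.84 and 6.98 against 6.80, 6.90 and 6.54, again with overlap, and its difference of 0.176 had an interval from -0.03 to 0.38 (adjusted p = 0.224). H1f4 shares its probe set with H2bc6, and that probe set differed by 0.114 with overlapping groups. H1f0, the replacement linker histone, was not analysed here.

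As a description, the change of H1f5 exceeded that of H1f2 by 1.442 ± 0.103 (SE between arrays) and the change of H1f1 exceeded that of H1f2 by 1.418 ± 0.083. These pairs, and those of the variants given further on, were chosen after their values were seen, so the differences carry no test. H1f3 was not paired.

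**Figure D2:**
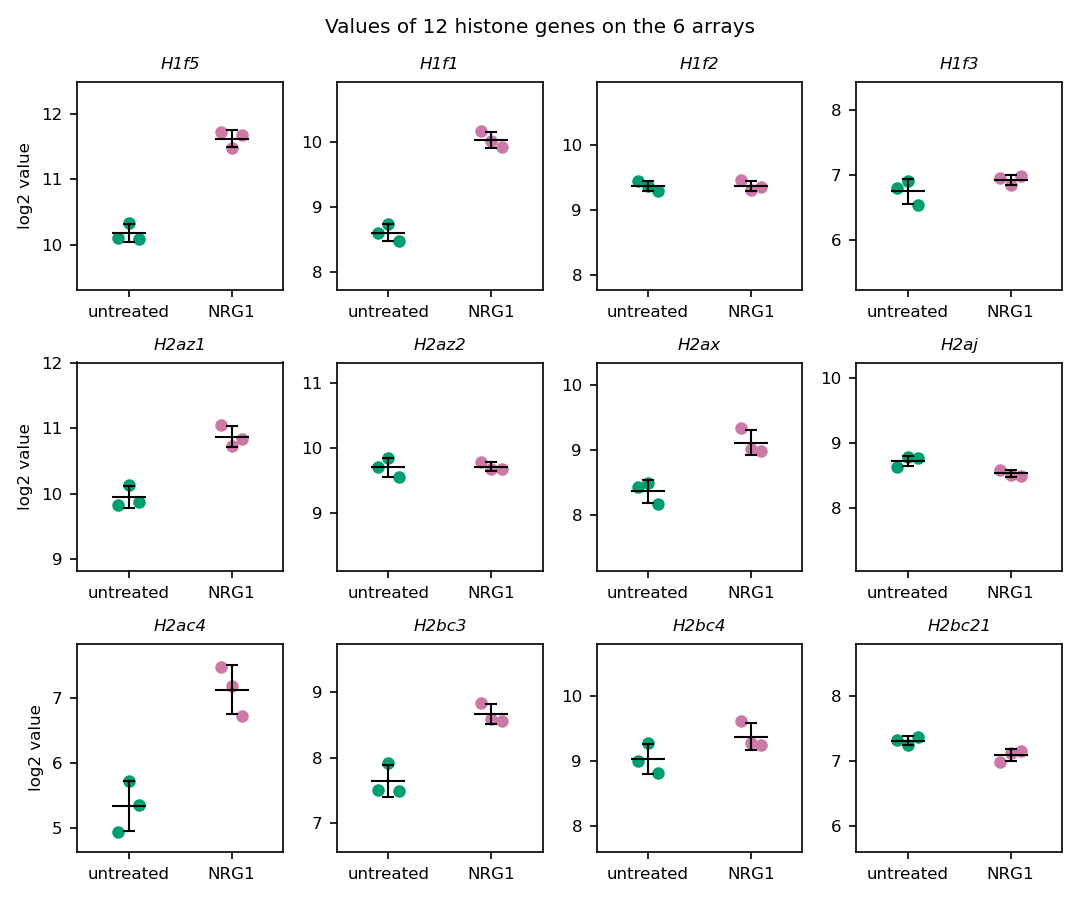
Levels (log2) of 12 histone genes on each of the 6 arrays, as points, with the group mean and SD and axes of equal span. H1f5, H1f1, H2az1, H2ax, H2ac4 and H2bc3 are separated between the groups with NRG1 higher, the groups of H1f2 and H2az2 overlap, and H2aj and H2bc21 lie lower with NRG1.

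H2A and H2B pair as a dimer in the nucleosome and their genes often lie side by side in the clusters. The widest change of any histone gene was that of H2ac4, which read 7.47, 7.18 and 6.72 with NRG1 and 4.95, 5.72 and 5.36 untreated. The lowest NRG1 array stood 1 log2 unit above the highest untreated array, and the rise was 3.43-fold (1.78 ± 0.206, adjusted p = 0.000138). Its untreated level was below the median of all genes, where array signals can be compressed, but compression was not measured. The SD was 0.382 with NRG1 and 0.385 untreated. Probe sets that the annotation gives to H2ac4 together with many other genes, mostly H2A, differed by 0.539 and 0.580. The size of the fold for this copy is therefore uncertain. H2ac15 read 9.53, 9.18 and 9.29 against 8.42, 8.52 and 8.39, a 1.85-fold rise (0.889 ± 0.089, adjusted p = 5.12e-05). H2aw and H2ac8 were not called, with differences of 0.217 (adjusted p = 0.0771) and 0.22 (0.123), although in both genes every NRG1 array lay above every untreated array. H2aw passed the threshold in 5 of 16 alternative settings: array weights (adjusted p = 0.0239), a trended robust variance (0.0191), removal of the dimmest 25% (0.0483) or 50% (0.0253) of genes, and the fit without untreated array 2 (0.0436). H2ac8 passed in 1, without untreated array 1 (0.0398). H2ac8 was among the dimmest histone genes at 3.59 to 4.06.

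Of the 8 H2B genes 5 rose, 1 fell and 2 were not called. H2bc3 read 8.84, 8.59 and 8.57 with NRG1 and 7.51, 7.92 and 7.49 untreated, a 2.04-fold rise (1.03 ± 0.118, adjusted p = 0.000129). H2bc18 rose 1.83-fold (adjusted p = 0.000331) and H2bc14 rose 1.77-fold (adjusted p = 8.22e-06), while H2bc9 and H2bc8 rose by 0.518 and 0.369 on the log2 scale. H2bc4 read 9.61, 9.27 and 9.24 with NRG1, and untreated it ran from 8.82 on array 3 to 9.28 on array 2. The second untreated array reached the NRG1 arrays, and the gene was not called (0.34, interval 0.06 to 0.62, adjusted p = 0.0904). It passed in 4 of 16 settings: without that array (0.0244), array weights (0.0203), a trended robust variance (0.0262) and removal of the dimmest 50% of genes (0.0334). H2bc22 differed by 0.195 and was not called (adjusted p = 0.19).

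H2bc21 was the only histone gene of the 40 that was called lower. In the mouse it encodes H2BE, known as an H2B form of olfactory neurons, although its symbol groups it with the clustered genes. It read 6.99, 7.13 and 7.15 with NRG1 and 7.32, 7.24 and 7.37 without, so the groups were separate by a narrow margin. The gene fell by 0.219 ± 0.067 on the log2 scale (1.16-fold, adjusted p = 0.0435), and that call was lost in 7 of 16 alternative settings, among them the fits without NRG1 array 1 (0.168), NRG1 array 2 (0.073), NRG1 array 3 (0.0609), untreated array 1 (0.125) or untreated array 3 (0.127).

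The tetramer of H3 and H4 is the first part of the nucleosome to be laid on new DNA. All 3 H3 genes and all 7 H4 genes measured alone rose. H3c4 read 7.35, 7.30 and 7.48 against 6.69, 6.68 and 6.87 (1.55-fold, 0.629 ± 0.075, adjusted p = 0.000175), and H3c15 rose by 0.575 (adjusted p = 0.000929). H3c7 was dim, at 4.33 to 4.79, and its rise of 0.258 was close to the threshold (adjusted p = 0.0479), with the call lost in 9 of 14 settings and adjusted p from 0.0775 to 0.141 without NRG1 array 1, 2 or 3 or untreated array 1 or 3. Among the H4 genes H4c6 read 10.35, 9.91 and 9.96 with NRG1 and 8.89, 9.25 and 8.84 without, a 2.11-fold rise (1.08 ± 0.132, adjusted p = 0.000198). H4c4 and H4c14 rose 1.79-fold and 1.68-fold, with separate groups. The untreated arrays read 9.99 to 10.23 for H4c4 and 9.97 to 10.1 for H4c14, and the NRG1 arrays 10.86 to 11.12 and 10.64 to 10.96. The other 4 H4 genes rose by 0.602 (H4c8), 0.511 (H4c3), 0.451 (H4f16) and 0.241 (H4c9). The call of H4c9 was lost without NRG1 array 1 (adjusted p = 0.0967), NRG1 array 3 (0.0844) or untreated array 3 (0.0684). H4f16 lies away from the clusters and was the only replication-dependent member on chromosome 6, where H2aj, H1f10 and H1f8 also lie. It read 9.57, 9.28 and 9.37 against 8.89, 9.09 and 8.88.

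Many histone genes are near-identical copies, and probes of 1 copy can take up message of another, so the level of a single copy is uncertain even where the annotation names 1 gene. Probe sets that the annotation gives to several histone genes were therefore read beside the single ones, as sums over copies. The 10 probe sets shared by 12 H3 genes differed by 1.16 to 1.23 (median 1.19), all with separate groups and NRG1 higher. When 1 of them was added to the fit it gave a 2.33-fold rise (1.22 ± 0.101, adjusted p = 1.35e-05), above each of the 3 H3 genes measured alone. The 7 probe sets of 14 to 15 H2B genes differed by 1.13 to 1.27, and the 6 shared H4 probe sets by 0.75 to 0.91. Only 6 of these H2B sets and 5 of these H4 sets gave distinct values. Shared sets of a family name largely the same copies, so they are not independent readings. The 2 sets that name 19 to 20 genes, mostly H2A, differed by 0.539 and 0.580. Another 37 protein-coding histone genes are named only on such shared probe sets and have no value of their own. With 4 shared probe sets added, 29 of 44 rose and 1 fell. Only sets in which every listed symbol matched the rule were added, the brightest of each list, which left out the H2B and H2A sets. The H3 set and the larger H4 set also name genes already counted alone, so 44 is not a count of separate genes.

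**Figure D3:**
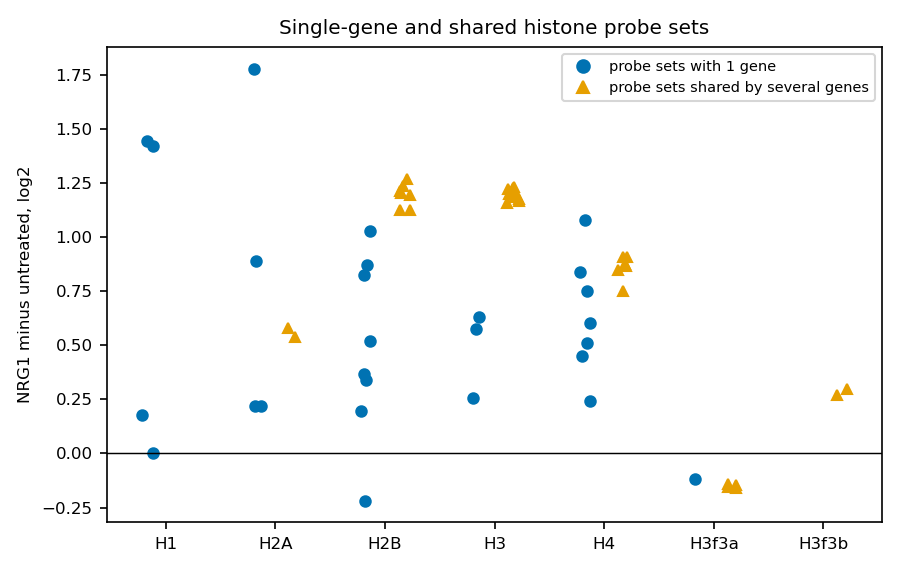
Change (log2, NRG1 minus untreated) of histone probe sets with 1 gene (circles) and of probe sets shared by several genes (triangles), by family. Of the shared sets drawn, only those of H3f3a lie below 0, and the shared H3 sets (1.16 to 1.23) and H2B sets (1.13 to 1.27) lie above the single-gene sets of their family.

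By position, 20 of the 26 replication-dependent genes are on chromosome 13, where 15 rose and 5 were not called (median 0.56). On chromosome 3, 3 of 4 rose and H2bc21 fell (median 0.664). Of the 18 replication-dependent genes above the median level of all genes 14 rose (median 0.635), and of the 8 below it 5 rose (median 0.417). The same split over all genes gave rises for 20.5% above and 4.2% below. Level and change correlated at Pearson's r = 0.30 and Spearman's rho = 0.307 over the 26 genes, given as a description because the genes share arrays and in part probes.

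**Figure D4:**
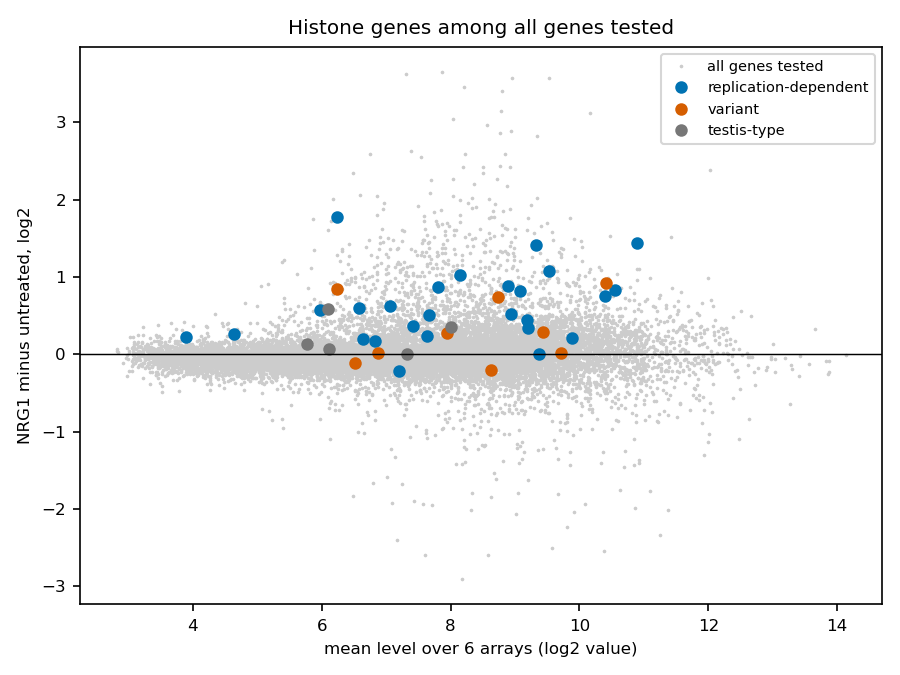
Change (log2, NRG1 minus untreated) against mean level over 6 arrays (log2) for all 19939 genes in grey, with the histone genes in colour by class. Histone genes lie mostly above 0 across the whole span of levels, and H2ac4 at a change of 1.78 is the highest of them.

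Among the variants, those of H2A gave the widest differences. H2az1 encodes H2A.Z.1, found in nucleosomes around transcription start sites, and read 11.05, 10.73 and 10.84 with NRG1 and 9.82, 10.14 and 9.88 without. The groups were well apart and the rise was 1.90-fold (0.926 ± 0.103, adjusted p = 0.000101), while a second probe set of the gene gave 0.973 ± 0.103. H2az2 encodes the closely related H2A.Z.2 and read 9.79, 9.68 and 9.68 against 9.71, 9.84 and 9.56. Its groups overlapped, with a difference of 0.016 and an interval from -0.16 to 0.19. The change of H2az1 exceeded that of H2az2 by 0.91 ± 0.09 (SE between arrays, not tested).

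H2ax encodes the form whose phosphorylation marks DNA breaks, and it read 9.33, 9.01 and 8.99 with NRG1 and 8.44, 8.50 and 8.17 without, a 1.67-fold rise (0.736 ± 0.109, adjusted p = 0.000767). H2aj encodes a variant that lies close to canonical H2A in sequence. It read 8.59, 8.51 and 8.49 with NRG1 and 8.63, 8.78 and 8.76 untreated, separate and lower with NRG1, but the difference of -0.196 was not called (interval -0.34 to -0.05, adjusted p = 0.0594). It passed the threshold in 4 alternative settings, quantile normalization among them.

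MacroH2A carries a large extra domain and is associated with repressed chromatin. Macroh2a2 read 6.58, 6.66 and 6.73 with NRG1 and 6.16, 5.88 and 5.41 without. The untreated arrays were spread but all lower, and the rise was 1.79-fold (0.843 ± 0.151, adjusted p = 0.00256). Macroh2a1 read 9.68, 9.52 and 9.53 against 9.24, 9.30 and 9.30, a 1.23-fold rise (adjusted p = 0.00918). The change of Macroh2a2 exceeded that of Macroh2a1 by 0.549 ± 0.25 (SE between arrays, not tested). Macroh2a3, a transcribed pseudogene, differed by 0.012 and was not called.

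Of the remaining variants, the linker histone H1f10 rose 1.21-fold, from 7.84, 7.70 and 7.87 to 8.09, 8.12 and 8.02 (adjusted p = 0.0149, or 0.0572 without NRG1 array 2). H3.3, the H3 form laid down outside DNA replication, comes from H3f3a and H3f3b. The probe set of H3f3a alone was dim and not called, at 6.38, 6.41 and 6.57 with NRG1 and 6.57, 6.64 and 6.49 without (-0.117, interval -0.28 to 0.04, adjusted p = 0.31). The 4 brighter probe sets that it shares with the predicted gene Gm12657 differed by -0.142 to -0.160 with separate groups. The 2 probe sets shared by H3f3b and Gm6485 differed the other way, by 0.270 and 0.298, also with separate groups. These shared sets were not tested. Cenpa, the centromeric H3 form, lies outside the symbol rule and read 8.83, 8.66 and 8.66 against 7.72, 7.92 and 7.78, a 1.88-fold rise (0.911 ± 0.076, adjusted p = 1.43e-05). H2bu2, also outside it, differed by 0.02 and was not called.

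The testis-type genes are known for expression in male or female germ cells. H2bc1 read 6.31, 6.42 and 6.41 with NRG1 and 5.86, 5.57 and 5.98 without, a rise of 0.581 ± 0.097 (adjusted p = 0.00163). Its 6-array mean of 6.09 was below the median of 7.17 over all genes. The annotation also names H2bc1 on some of the shared H2B probe sets. Whether its own probe set took up message of other H2B copies was not tested. H2ac1 read 8.20, 8.23 and 8.12 against 7.82, 7.76 and 7.90, a rise of 0.354 (adjusted p = 0.00278). The linker genes H1f8, H1f6 and H1f7 differed by 0.133, 0.075 and 0.011 and were not called.

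Promoter sequences of 8 genes are printed because they carry elements known from histone promoters and belong to genes that rose and genes that were not called. Each is the 250 bases before the annotated start in RefSeq (GRCm38.p6), 5' to 3' on the gene's strand, with matched letters in capitals. Both strands were searched for the CCAAT box by its name's letters, for the TATA box as TATAAA, for the octamer as ATGCAAAT, and for the H1 box as AAACACA. No matches overlap in the windows shown. The H1 genes shown are H1f1 (chr13:23763418-23763667, plus strand), H1f5 (chr13:21780626-21780875, minus strand) and H1f2 (chr13:23738557-23738806, plus strand).
H1f1: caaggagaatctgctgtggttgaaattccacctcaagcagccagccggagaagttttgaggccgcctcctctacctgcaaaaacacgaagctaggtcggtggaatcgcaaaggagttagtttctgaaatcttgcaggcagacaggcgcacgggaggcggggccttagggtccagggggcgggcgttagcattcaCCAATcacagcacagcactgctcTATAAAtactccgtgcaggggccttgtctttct
H1f5: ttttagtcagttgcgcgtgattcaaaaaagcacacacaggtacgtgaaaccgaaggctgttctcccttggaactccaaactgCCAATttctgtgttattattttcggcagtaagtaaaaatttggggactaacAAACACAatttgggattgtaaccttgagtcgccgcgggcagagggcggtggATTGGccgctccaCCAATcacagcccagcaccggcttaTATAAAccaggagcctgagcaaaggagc
H1f2: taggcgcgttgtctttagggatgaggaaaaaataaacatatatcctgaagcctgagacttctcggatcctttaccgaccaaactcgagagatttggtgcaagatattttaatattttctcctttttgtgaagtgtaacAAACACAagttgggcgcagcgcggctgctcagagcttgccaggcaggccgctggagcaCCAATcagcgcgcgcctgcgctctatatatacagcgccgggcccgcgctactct
The genes of H2A and H2B shown are H2ac4 (chr13:23750838-23751087, plus strand), H2bc3 (chr13:23746484-23746733, plus strand) and H2bc8 (chr13:23571150-23571399, plus strand).
H2ac4: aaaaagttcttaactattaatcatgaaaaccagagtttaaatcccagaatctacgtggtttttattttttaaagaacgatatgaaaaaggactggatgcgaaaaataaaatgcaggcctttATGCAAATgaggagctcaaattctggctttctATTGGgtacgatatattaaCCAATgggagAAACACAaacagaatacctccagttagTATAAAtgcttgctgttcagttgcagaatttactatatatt
H2bc3: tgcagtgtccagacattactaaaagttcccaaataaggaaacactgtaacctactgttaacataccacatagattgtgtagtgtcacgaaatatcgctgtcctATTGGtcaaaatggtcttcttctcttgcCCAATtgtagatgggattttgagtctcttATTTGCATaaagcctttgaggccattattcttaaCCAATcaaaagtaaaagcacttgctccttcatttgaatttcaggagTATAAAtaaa
H2bc8: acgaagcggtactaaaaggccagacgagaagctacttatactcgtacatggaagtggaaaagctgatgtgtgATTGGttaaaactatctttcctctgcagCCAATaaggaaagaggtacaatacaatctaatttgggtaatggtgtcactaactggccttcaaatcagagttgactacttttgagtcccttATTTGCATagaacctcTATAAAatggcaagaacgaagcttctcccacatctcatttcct
The H2A.Z genes shown are H2az1 (chr3:137864237-137864486, plus strand) and H2az2 (chr11:6444444-6444693, minus strand).
H2az1: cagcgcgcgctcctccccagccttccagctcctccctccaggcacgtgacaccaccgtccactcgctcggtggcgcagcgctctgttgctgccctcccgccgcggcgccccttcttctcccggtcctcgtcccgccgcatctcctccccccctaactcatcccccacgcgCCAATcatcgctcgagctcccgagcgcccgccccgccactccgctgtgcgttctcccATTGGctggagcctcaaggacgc
H2az2: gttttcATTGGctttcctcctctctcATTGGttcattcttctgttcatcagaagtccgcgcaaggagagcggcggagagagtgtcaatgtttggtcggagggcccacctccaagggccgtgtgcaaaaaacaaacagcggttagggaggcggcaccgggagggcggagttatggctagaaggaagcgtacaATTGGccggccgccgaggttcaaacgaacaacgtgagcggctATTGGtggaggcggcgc

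In these windows the H1 box of H1f5 began 117 bases before the start and that of H1f2 began 112 bases before it, although H1f5 rose and H1f2 was not called. H1f1 held CCAAT at 56 bases and TATAAA at 33 bases before the start and no AAACACA. H1f2 held CCAAT at 54 bases and no TATAAA. Between that CCAAT and the start its window reads tatatata, letters that the search for TATAAA does not match. The octamer lay 129 bases before the start in H2ac4, 90 in H2bc3 and 59 in H2bc8, genes that rose by 1.78, 1.03 and 0.369. Among replication-dependent genes whose windows are not printed, it was also in H2bc14 and H2bc18, which rose by 0.825 and 0.871. H2ac8 and H2aw held it too, and they were not called (0.22 and 0.217). H2az1 and H2az2 both held CCAAT only, at 2 and 4 places, beside changes of 0.926 and 0.016.

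Over the 22 replication-dependent genes with a window, CCAAT was found in 17 (77.3%), TATAAA in 12 (54.5%), the octamer in 7 (31.8%) and AAACACA in 5 (22.7%). The shares among all 32851 windows of the same length were 33.8%, 12.4%, 1.6% and 6.25%. By family, the octamer was found in 3 of 4 H2A and 4 of 6 H2B windows, and in none of the H1, H3 or H4 windows. AAACACA was found in 3 of 4 H1 windows. Of 7 variant windows 4 held CCAAT, 1 held AAACACA, and neither TATAAA nor the octamer was found. A match is a description of letters, and 34 of the 40 genes had a window. The divergent pair H2ac8 and H2bc8 shares 179 bases of window, with changes of 0.22 (not called) and 0.369, and H2ac1 and H2bc1 share 220 bases, with changes of 0.354 and 0.581.

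Proteins that make and place histones were listed as well. Of 25 genes for histone transcription and message processing 9 rose (36.0%), 3 fell and 13 were not called (median 0.145). Over all genes 12.3% rose and 8.56% fell. The list had a median level of 8.71, and 20.5% of all genes above the median level rose. Ccne2 (1.11 ± 0.121) and Ccne1 (0.66 ± 0.088), the E-type cyclins, and Srrt (0.733 ± 0.07), a factor in RNA processing that binds the cap complex, rose the most (adjusted p at most 0.000378). Npat, the coactivator of replication-dependent histone genes that cyclin E with Cdk2 phosphorylates, read 8.43, 8.37 and 8.45 with NRG1 and 9.06, 9.08 and 8.90 without. It fell by 0.598 ± 0.068 (adjusted p = 0.000122), and Cdk2 fell by 0.564 (adjusted p = 8.38e-05). Nfyc, a subunit of the factor that binds CCAAT boxes, fell by 0.311 (adjusted p = 0.00883). The other subunits of that factor, Nfya and Nfyb, went the other way and were not called. They differed by 0.13 (adjusted p = 0.191) and 0.124 (adjusted p = 0.161), each with separate groups. Slbp, which binds the stem-loop of histone messages, differed by 0.145 and was not called (adjusted p = 0.312).

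Of 27 chaperones and deposition factors 10 rose (37.0%), 1 fell and 16 were not called (median 0.123). Their median level was 8.97, and the share rising was 12.3% over all genes and 20.5% over those above the median level. Asf1b, which hands H3 and H4 to the deposition machinery, rose by 1.11 ± 0.1 (adjusted p = 2.36e-05), and Chaf1b, a subunit of the chromatin assembly factor at replication forks, by 0.832 ± 0.103 (adjusted p = 0.000212). Anp32e, which removes H2A.Z from chromatin, rose by 0.97 ± 0.079 (adjusted p = 1.19e-05). The H3.3 chaperones Hira, Daxx and Atrx differed by 0.01, 0.007 and -0.078 and were not called. Set fell by 0.243 (adjusted p = 0.0324), a call lost in 8 of 15 settings, with adjusted p from 0.0525 to 0.135 without NRG1 array 1, 2 or 3 or untreated array 1 or 3. All 19 DNA replication enzymes measured rose, by 0.448 to 1.398 (median 0.737), led by Rrm2, Mcm3 and Mcm5. Their part in the histone result was not tested.

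**Figure D5:**
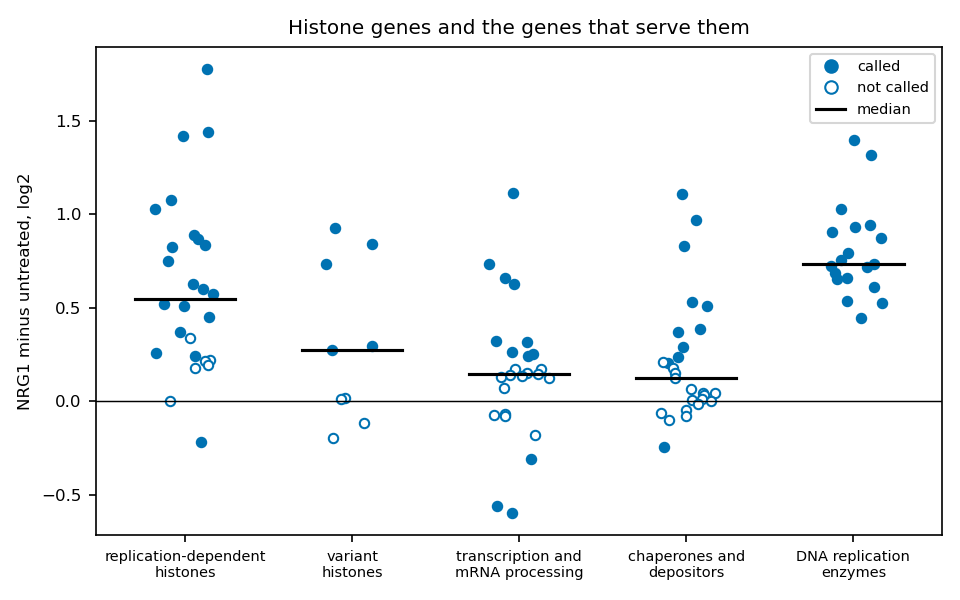
Change (log2, NRG1 minus untreated) of single genes, with the median of each group as a line, for replication-dependent histones, variant histones, transcription and message processing, chaperones, and DNA replication enzymes. The medians are 0.547, 0.274, 0.145, 0.123 and 0.737, and the replication enzymes are the group with no value near 0.

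Within the groups many replication-dependent genes deviated to the same side by array. On NRG1 array 1, 20 of 26 lay above their group mean, with a median deviation of 0.099, and on untreated array 2, 20 of 26 lay above it, with a median deviation of 0.093. On untreated array 3 only 5 lay above (median deviation -0.084), while the median over all genes stayed within 0.012 of 0 on every array. Replication enzymes deviated by 0.153 on NRG1 array 1 and by 0.028 on untreated array 2. Leaving out any 1 array kept the median change of the 26 genes between 0.491 and 0.590.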

How the data were processed

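RNA of 6 samples was hybridised to Affymetrix Mouse Gene 1.0 ST arrays, 200 ng each. The deposited log2 values run from 2.34 to 14.59, and the submitters' processing notes name RMA and GCOS, with settings and build not given in the sources used here. Of 35557 probe sets, 21789 name 1 gene, 1621 several, and 12147 are unnamed here. Keeping the brightest per gene left 19939 genes, with no filter on level. Groups came from sample titles. The 2 groups were compared 2-sided with lmFit and eBayes of limma 3.58.1 (R 4.3.3), and p-values were adjusted by Benjamini-Hochberg across the whole table. Tested on simulated data with 200 changed genes of 19939, it recovered 98.4% at a log2 change of 0.5 and 100% at 1, with 5.73% of calls false. The simulated noise was independent between genes and no change below 0.5 was simulated, so these figures do not cover the smaller changes reported here. Members and lists were chosen with earlier results of these data known. Named were all variant and testis-type genes, the 8 largest called rises and falls of replication-dependent genes and the 4 brightest uncalled members. The 3 largest called changes each way per list were named as well. Other genes named, among them the dimmer replication-dependent ones, were chosen after their values were seen. RefSeq (GRCm38.p6) gave names, chromosomes and promoters, since the arrays' values carry no coordinates. Scaling, level filters, weights, variance models, a minimum change and left-out arrays were tried as alternatives. An array has no read depth to report, and the number of 3 arrays a group limits the precision.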

Additional observations from a re-analysis of the deposited data

How the results depend on the processing

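Of the 40 histone genes, 26 kept their side of the threshold in every setting run, and no called gene changed sign. H1f2 (-0.07 to 0.04), H1f7 (-0.03 to 0.045), H2az2 (-0.057 to 0.087) and Macroh2a3 (-0.021 to 0.053), none of them called in any setting, changed sign between settings. Of the 27 called, 17 stayed called throughout and 10 were lost somewhere, 6 of them only when a change was tested against a minimum of 1.2-fold. Against that minimum, 883 genes rose and 342 fell, with 17 histone genes up and 0 down, 0 replication-dependent genes down and 3 variants up. With array weights 2880 genes fell. H2aj made 2 histone genes and 1 variant lower under the trended robust variance, quantile normalization, and removal of the dimmest 25% or 50% of genes. The last setting moved the median of all genes from -0.029 to 0.008. Leaving out each array in turn gave 0 to 1 histone genes down and 0 to 1 replication-dependent genes down, with 24 to 28 histone genes up. The replicate numbers did not pair the samples (correlations of same-numbered deviations -0.095, -0.164 and 0.0739). With the number as a replicate block, 25 histone genes rose and 0 fell, 0 replication-dependent genes fell, and 2198 of all genes rose and 1410 fell. Another background correction (which needs the signal of each probe) and a block for slide or scan (given in none of the sources used here) were not run. Signals near background limit H2ac8 and H3c7, the dimmest members.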
